A study of Mus musculus with 4 samples.

Results

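The Hes and Hey genes studied here are *Hes1*, *Hes5*, *Hes6*, *Hey1*, *Hey2* and *Heyl*, 6 members of the basic helix-loop-helix family of transcriptional repressors. They were chosen by symbol, as all non-control probes whose gene name on the array equals one of these 6, and each was read by 1 probe, so that 6 of the 39429 probes and 6 of the 29924 gene names on the array belong to them. RNA of E14.5 cochlear ducts was hybridised to 4 Agilent 2-colour arrays. On each, the authors set 1 pool of Sox2-Tbx2LOF ducts against 1 pool of control ducts, with female pools on arrays 1 and 2 and male pools on arrays 3 and 4, and the mutant pool carried Cy5 on arrays 1 and 3 and Cy3 on arrays 2 and 4. The comparison asks which transcripts depend on *Tbx2*, a T-box transcription factor needed on the inner side of the organ of Corti, before hair cells and supporting cells are formed.

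The mutants are labelled Sox2(creERT2);Tbx2(fl/fl) and the controls Tbx2(fl/n.d.), where n.d. marks a second allele that was not determined, and all embryos are of the NMRI strain. In the study's methods the controls are cre-negative, and mutants come from a cross of parents homozygous for the floxed *Tbx2* allele, the mother also bringing a membrane Tomato/GFP reporter at *R26*. Mutants and controls share at least 1 floxed allele and the single dose of 4 mg tamoxifen given to the dam at E12.5. The recombinase is driven from the *Sox2* locus, which is active in prosensory cells and also in other *Sox2*-positive cells such as glial precursors, and the mutants have this insertion where the controls do not. Each pool mixes the ducts of many embryos, and the spiral ganglion was removed before extraction. *Esr1* encodes an oestrogen receptor, and the human form of this receptor is part of CreERT2. Its probe was well above background in 4 of 4 mutant pools and 0 of 4 control pools. *Tbx2* was lower on 4 of 4 arrays (log2 ratio -0.12 ± 0.10, SD, n = 4) and did not pass the test (limma adjusted p = 0.124). Ratios of the same sign on 4 of 4 arrays were seen for 18.2% of all genes tested. Where the probe for *Tbx2* lies relative to the floxed exon was not analysed here.

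Hes and Hey proteins are the best known direct targets of Notch signalling. A ligand of the Delta or Jagged type on one cell activates a Notch receptor on its neighbour, the intracellular part of the receptor joins RBPJ and Mastermind on DNA, and Hes and Hey repressors made in response silence proneural genes such as *Atoh1*, with Groucho proteins as corepressors. In the cochlea this circuit first marks out the prosensory domain and later keeps supporting cells from becoming hair cells. *Hes6* is the exception in the family, since it opposes *Hes1* and accompanies differentiation.

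The probes of the 6 genes are 60 bases long, and each was printed in 4 spots per array. They are placed in the array file on mouse build mm9, *Hes1* at chr16:30067820-30067879 on the plus strand, *Hes5* at chr4:154336347-154336406 on the plus strand, *Hes6* at chr1:93308264-93308323 on the minus strand, *Hey1* at chr3:8663432-8663491 on the minus strand, *Hey2* at chr10:30552729-30552788 on the minus strand and *Heyl* at chr4:122926975-122927034 on the plus strand. Each is assigned there to a RefSeq messenger RNA of the gene. Which exon or part of the transcript a probe covers was not analysed here. The first 30 bases of the probes for *Hes5* and *Hey2*, the genes on which the results turn, read as follows.
Hes5 probe, first 30 bases: acgatgatccttaaaggattcctttgtatg
Hey2 probe, first 30 bases: ccagaggctcattgacaccaactcaaaaac

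RefSeq promoter windows on build GRCm38.p6, from 250 bases before to 50 bases after a transcription start, were matched for 3 of the 6 genes, *Hes5*, *Hes6* and *Hey2*. They were searched on both strands for GTGGGAA, the core letters that RBPJ is known to bind. The *Hes5* and the *Hey2* window each held 2 copies, one reading on either strand, whereas neither of the 2 windows of *Hes6* held one. Of all 32851 promoter windows 6.38% held at least 1 copy and 0.256% held 2 or more. The first bases of the copies lay 226 and 83 bases before the start of *Hes5* and 207 and 4 bases before that of *Hey2*. The stretches of these 2 genes are shown because their windows held copies, which are in capitals (TTCCCAC is GTGGGAA read on the other strand). *Hes1*, *Hey1* and *Heyl* had no window to search, so whether they share this arrangement is not known here. A match of letters is a description of the sequence and does not show binding.
Hes5, GRCm38.p6 chr4:154960682-154960861, plus strand: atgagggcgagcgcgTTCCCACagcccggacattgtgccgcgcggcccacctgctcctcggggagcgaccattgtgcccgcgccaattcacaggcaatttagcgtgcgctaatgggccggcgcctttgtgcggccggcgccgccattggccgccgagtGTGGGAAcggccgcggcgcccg
Hey2, GRCm38.p6 chr10:30842781-30843005, minus strand: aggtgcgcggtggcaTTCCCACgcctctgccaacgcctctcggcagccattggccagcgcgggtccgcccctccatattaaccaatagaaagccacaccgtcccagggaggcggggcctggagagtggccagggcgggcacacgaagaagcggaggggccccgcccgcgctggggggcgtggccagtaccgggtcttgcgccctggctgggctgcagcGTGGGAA

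*Hes5* was lower and *Hey2* was higher in Sox2-Tbx2LOF ducts, and the other 4 genes did not pass the test. *Hes5* fell 1.93-fold and *Hey2* rose 1.28-fold. Hence 2 of 6 genes had an adjusted p below 0.05, where 5.18% of the 21042 genes tested did (2.26% higher, 2.92% lower). With a fold change of at least 1.5 required in addition, *Hes5* remained, beside 0.309% of all genes that were lower by that rule, and none of the 6 was higher by it, beside 0.133% of all genes. All 6 probes were well above background in all 8 pools. Ratios are given below as log2 of mutant over control, so that 1 is a doubling, and levels as the log2 of the normalised signal of 1 pool after the mean offset of its dye was removed. Levels of different genes come from different probes and are not set against each other.

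*Hes5*, the Notch effector of neural progenitors and of cochlear supporting cells, had levels of 9.23, 9.98, 10.14 and 9.94 in the mutant pools of arrays 1 to 4. The control pools of the same arrays had levels of 10.40, 10.62, 10.86 and 11.19. The groups did not overlap, the highest mutant pool lying 0.26 below the lowest control pool, and such a separation was seen for 7.36% of all genes. The lowest level was that of the mutant pool of array 1, and the highest that of the control pool of array 4. The log2 ratios were -1.35, -0.45, -0.91 and -1.07 on arrays 1 to 4, with a mean of -0.95 ± 0.38 (SD, n = 4). The fall was largest on arrays 1 and 4 and least on array 2. The mean ratio was -1.13 with the mutant in Cy5 and -0.76 with the mutant in Cy3. The limma adjusted p was 0.00198, with a 95% interval of -1.18 to -0.71 for the log2 ratio. Both rest on an error (SE 0.102) that limma drew towards that of other genes, not on the spread of *Hes5* alone. Only 18 of the 21042 genes had a lower log2 ratio. As these are bulk samples, fewer *Hes5*-positive cells and less *Hes5* RNA per cell cannot be told apart.

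*Hey2*, known in the cochlea as a repressor that maintains pillar cells and that responds to FGF as well as to Notch, had levels of 11.89, 11.98, 11.81 and 11.84 in the mutant pools of arrays 1 to 4. The control pools had levels of 11.53, 11.63, 11.46 and 11.48. Every mutant pool lay above every control pool, by 0.18 for the closest pair. Groups without overlap, in either direction, were seen for 7.36% of all genes. The log2 ratios were 0.39, 0.33, 0.38 and 0.33, with a mean of 0.36 ± 0.03 (SD, n = 4). The spread over arrays was the smallest of the 6 genes, and the mean ratio was 0.38 with the mutant in Cy5 and 0.33 with the mutant in Cy3. The limma adjusted p was 0.000969, with a 95% interval of 0.28 to 0.43, which lies below the 1.5-fold line at 0.585. Only 97 genes had a higher log2 ratio. Within each array the ratio of *Hes5* was below that of *Hey2*, by 1.74, 0.78, 1.29 and 1.40 on the log2 scale, a mean difference of 1.30 that is described here without a test.

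**Figure D1:**
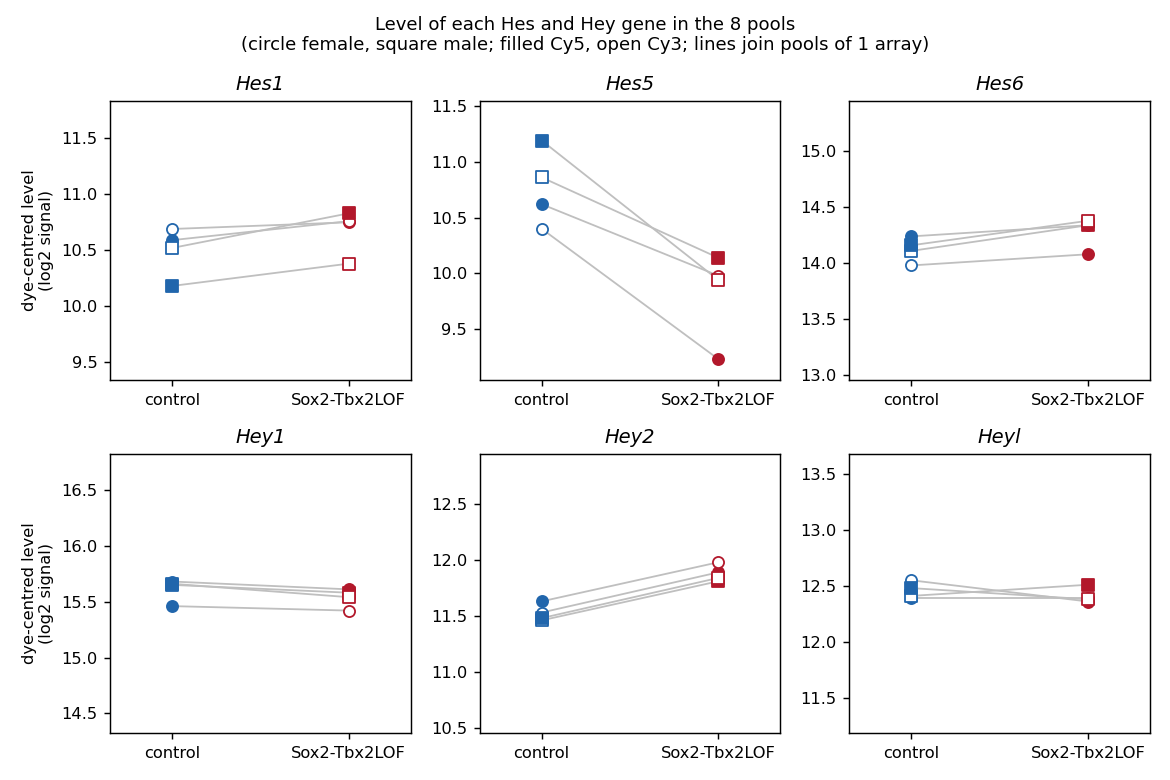
Dye-centred level (log2 signal, vertical axis, the same span in every panel) of the 6 genes in the 4 control and 4 Sox2-Tbx2LOF pools, with lines joining the pools of 1 array. Of the 6, only *Hes5*, with mutant pools from 9.23 to 10.14 against controls from 10.40 to 11.19, and *Hey2*, with mutant pools from 11.81 to 11.98 against controls from 11.46 to 11.63, have groups that do not overlap. Among all genes tested 7.36% have such groups.

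*Hes1*, the general Notch-responsive repressor that holds progenitors in an undifferentiated state, had levels of 10.75, 10.76, 10.83 and 10.38 in the mutant pools. The control pools had levels of 10.69, 10.59, 10.52 and 10.18. Both pools of array 4 were low, and the groups overlapped. Within arrays the log2 ratio was positive on 4 of 4 arrays (0.03, 0.20, 0.28 and 0.24), with a mean of 0.19 ± 0.11 (SD, n = 4). It missed the threshold after adjustment (limma adjusted p = 0.0618, 95% interval 0.08 to 0.29). The same sign on 4 of 4 arrays was seen for 18.2% of all genes.

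*Hes6*, the antagonist of *Hes1*, had levels from 14.08 to 14.38 in mutant and from 13.98 to 14.24 in control pools, and the groups overlapped. The log2 ratios were -0.08, 0.27, 0.05 and 0.39 (mean 0.16 ± 0.21, SD, n = 4). They were higher where the mutant pool carried Cy3 (mean 0.33) than where it carried Cy5 (mean -0.02), and the fit removes this difference between dyes before it estimates the error. The limma adjusted p was 0.0695, with a 95% interval of 0.06 to 0.25.

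*Hey1*, which in the cochlea is expressed in prosensory cells and delays hair cell formation, had levels from 15.42 to 15.61 in mutant and from 15.46 to 15.68 in control pools. Its log2 ratios were -0.21, 0.09, -0.20 and 0.02, negative on both arrays with the mutant in Cy5 and positive on both with the mutant in Cy3. The mean of -0.08 ± 0.15 (SD, n = 4) did not pass the test (limma adjusted p = 0.275), and the 95% interval ran from -0.16 to 0.005. *Hey1* rests on fewer spots than the others, since only 2, 2, 2 and 1 of its 4 spots on arrays 1 to 4 carried no outlier flag.

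*Heyl*, a Notch target of supporting cells and of vascular smooth muscle, had levels from 12.36 to 12.51 in mutant and from 12.39 to 12.55 in control pools. Its log2 ratios were -0.41, 0.22, -0.11 and 0.12, again with the sign given by the dye of the mutant pool. The mean was -0.05 ± 0.28 (SD, n = 4), the limma adjusted p was 0.69, and the 95% interval ran from -0.17 to 0.07.

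**Figure D2:**
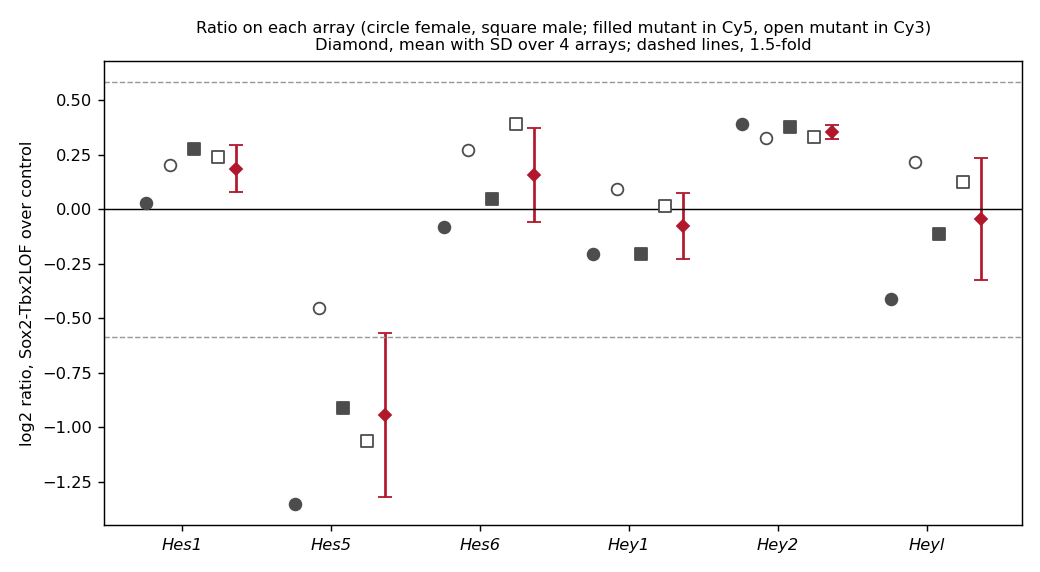
Log2 ratio of Sox2-Tbx2LOF over control (vertical axis) for the 6 genes on each of the 4 arrays, with the mean and SD as a red diamond. *Hes5* is below 0 and *Hey2* above 0 on 4 of 4 arrays, and the ratios of *Hey1* and *Heyl* change sign with the dye. Of all genes 18.2% had the same sign on 4 of 4 arrays.

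**Figure D3:**
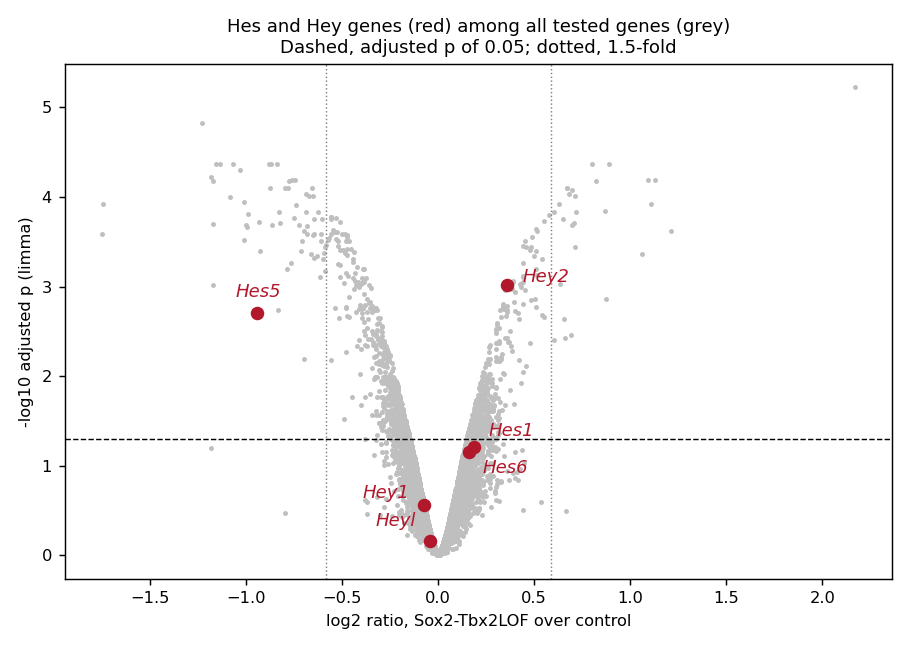
Log2 ratio (horizontal axis) against -log10 of the limma adjusted p (vertical axis) for the 21042 genes tested, grey, with the 6 Hes and Hey genes in red. *Hes5* lies outside and *Hey2* inside the 1.5-fold lines above the threshold, and *Hes1* and *Hes6* lie just below the threshold.

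The sexes were compared next. The mean log2 ratio of *Hes5* was -0.90 on the 2 female and -0.99 on the 2 male arrays, and that of *Hey2* was 0.36 and 0.35. *Hes1* had means of 0.12 in females and 0.26 in males, and *Hes6* of 0.10 and 0.22. *Hey1* (-0.06 and -0.09) and *Heyl* (-0.10 and 0.005) stayed near 0 in both. None of the 6 genes differed between sexes in its ratio (limma genotype by sex term, smallest unadjusted p = 0.149 for *Hes1*, adjusted p = 1 for each), and across all 21042 genes 0 passed after adjustment and 558 had an unadjusted p below 0.05. With 2 arrays per sex, such a difference would have to be large to be detected. In the order of mean levels, *Hes5* was highest in male controls (11.03), followed by female controls (10.51), male mutants (10.04) and female mutants (9.61). The pools of the male and female controls did not overlap, while those of the male and female mutants did. For *Hey2* the order was female mutants (11.94), male mutants (11.82), female controls (11.58) and male controls (11.47), and no neighbours in this order overlapped. *Hes1* was highest in female mutants (10.76), followed by female controls (10.64), male mutants (10.61) and male controls (10.35). For *Hes6* (means from 14.11 to 14.36), *Hey1* (15.52 to 15.66) and *Heyl* (12.38 to 12.47), neighbours in the order overlapped or touched. These orders and separations rest on 2 pools each and are given without a test. Groups of 2 pools often separate by chance, and the share of all genes that do so between sexes was not worked out.

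The other components of the pathway were then examined from 9 lists with 76 genes, of which 68 were tested. None was higher and 5 were lower at an adjusted p below 0.05, beside 2.26% higher and 2.92% lower over all 21042 genes. The median log2 ratio over the tested genes was 0.015 beside 0.002 over all genes. All 4 Notch receptors failed to pass, with log2 ratios from -0.02 for *Notch4* to 0.23 for *Notch1* (limma adjusted p = 0.0508 for the latter). Of 8 ligands, 3 were lower. These were *Jag1* (-0.19, adjusted p = 0.0278), a Notch ligand of the prosensory domain, *Jag2* (-0.19, adjusted p = 0.0312), which hair cells present to their neighbours, and *Dner* (-0.29, adjusted p = 0.0364), a neuronal ligand-like protein, all by limma and on 4 of 4 arrays. Such agreement of sign was seen for 18.2% of all genes. Of 5 Fringes and glycosyltransferases, *Lfng*, which modifies Notch receptors and so tunes their response to ligands, was lower on 4 of 4 arrays (log2 ratio -0.52 ± 0.07, SD, n = 4, limma adjusted p = 0.00031).

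Downstream of the receptors little passed the test. Of 16 genes of Notch processing and regulation, 12 of the nuclear complex, 6 Groucho corepressors, 4 tested genes of the other Hes-related factors and 7 Id and E proteins, 0 passed by limma, with list medians between 0.01 and 0.02. *Rbpj*, the DNA-binding partner of activated Notch, had a log2 ratio of -0.02 (limma adjusted p = 0.784). Among 6 proneural factors tested, the ratio of *Atoh1*, the hair cell determinant silenced by Hes and Hey proteins, was 0.05 ± 0.38 on the log2 scale (SD, n = 4, limma adjusted p = 0.777), and *Neurog3* was lower (-0.26, limma adjusted p = 0.0465), on 3 of 4 arrays. With Agilent's processed signals only *Lfng* of these 5 genes passed (adjusted p = 0.00418). *Jag1*, *Jag2* and *Dner* each lost the call without array 1, without array 3 and without array 4 (adjusted p up to 0.143, 0.132 and 0.23), and *Neurog3* without array 1, array 2 or array 4 (adjusted p up to 0.125, and a log2 ratio of -0.17 without array 1).

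Markers of other cells in the ducts moved with the genotype as well. The counts in this and the next paragraph stand beside 2.26% of all genes higher and 2.92% lower by the same rule. Of 10 neuronal markers 8 were lower and 1 higher (median log2 ratio -0.40), among them *Tubb3* (-0.39) and *Stmn2* (-0.41), and all 10 were above background. Of 8 markers of Schwann cell precursors 4 were lower and 1 was higher (median -0.36). *Foxd3*, *Fabp7*, *Ngfr* and *Cdh19* fell, the first with a log2 ratio of -1.17, while *Sox10* (0.01) did not pass, the 4 that fell being named after their values were seen. *Fabp7* and *Ngfr* are not particular to Schwann cell precursors. The study counts *Fabp7* among lowered genes known from the inner compartment, and uses NGFR protein to mark pillar cells. On arrays 1 to 4 the mean log2 ratio of the 10 neuronal markers was -0.52, -0.35, -0.44 and -0.36, and that of the 8 Schwann cell precursor markers was -0.39, -0.40, -0.44 and -0.48. The neuronal list fell most on array 1 and least on array 2. The Schwann cell precursor list fell most on array 4 and least on array 1. The summed level of each list, which its brightest genes dominate, overlapped between groups, from 15.39 to 15.52 in mutant and from 15.34 to 15.52 in control pools for neurons and from 17.44 to 17.64 against 17.43 to 17.60 for Schwann cell precursors (log2 of the summed signal). *Hes5* is also expressed in neural progenitors, and the part of these cells in its fall was not tested.

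*Hey2* and *Heyl* are also genes of blood vessels, so vascular markers were read beside them. Of 10 endothelial markers 2 were higher and none lower (median 0.09), with *Pecam1* at -0.01 and *Cdh5* at 0.11, and their summed level ran from 15.61 to 15.75 in mutant and from 15.48 to 15.66 in control pools. None of 8 markers of pericytes and smooth muscle passed by limma (median -0.01). In the cochlear epithelium 1 of 7 tested markers was higher (median 0.08), with *Epcam* at 0.02 and *Cdh1* at 0.17, and its summed level ran from 18.43 to 18.51 against 18.28 to 18.46. Of 8 prosensory markers 1 was higher and 2 were lower (median -0.01), with *Sox2* at 0.01 and *Jag1* lower as above, of 6 hair cell markers 2 were higher (median 0.07), with *Atoh1* and *Myo6* (0.09) not passing, and of 8 mesenchymal markers 1 was higher (median 0.11), with *Pou3f4* at -0.05 and *Tbx18* at 0.04. None of the 5 markers of blood or the 5 of macrophages passed by limma, with *Hbb-bh1* at 0.15 and *Hba-x* at 0.23, *Ptprc* at 0.01 and *Csf1r* at 0.04. The mean log2 ratio of the 10 endothelial markers was 0.07, 0.02, 0.08 and 0.08 on arrays 1 to 4. The part of vascular cells in the rise of *Hey2* was not tested.

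**Figure D4:**
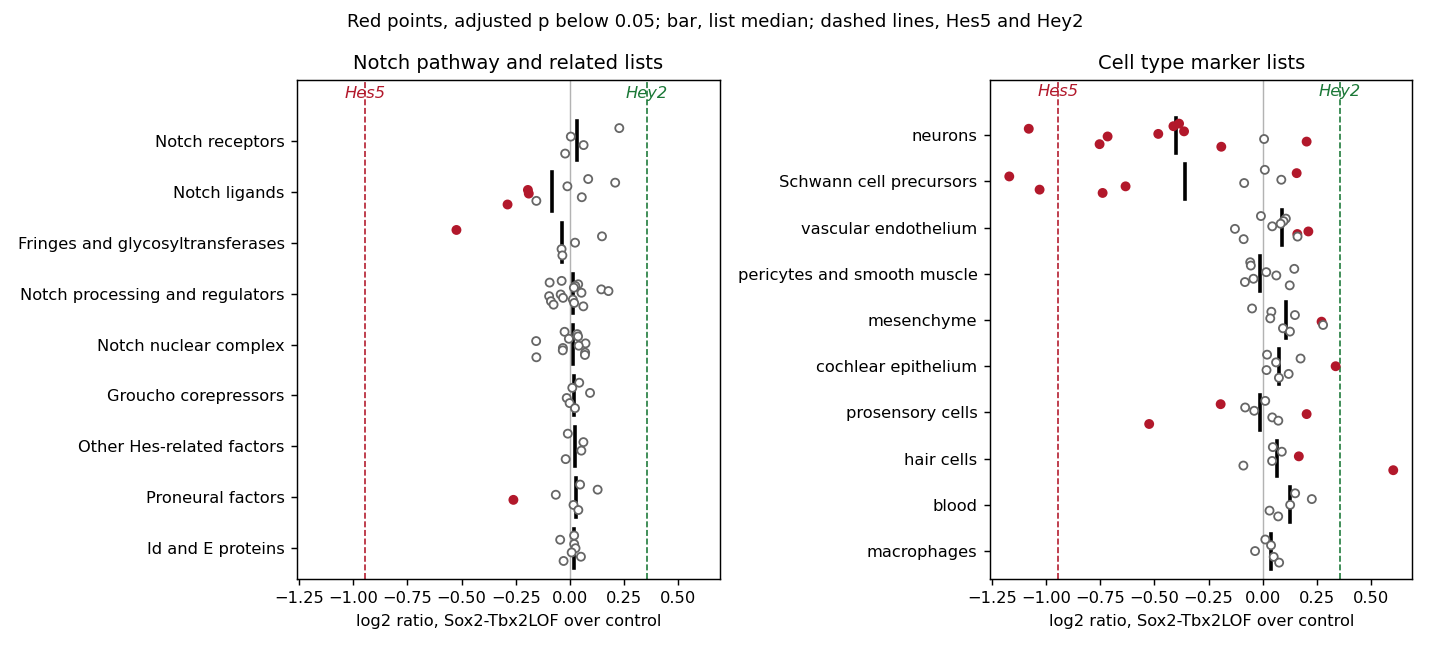
Log2 ratio of Sox2-Tbx2LOF over control (horizontal axis) of each tested gene in the Notch pathway lists (left) and the cell type marker lists (right), with list medians as black bars and the values of *Hes5* and *Hey2* as dashed lines. Receptors, nuclear complex and corepressors lie around 0, *Lfng* at -0.52 is the lowest pathway gene, and neuronal and Schwann cell precursor markers reach the range of *Hes5*.

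The level of each gene over the 8 pools was finally set against all other tested genes by Pearson's r, as a description over pools that share 2 genotypes, 2 sexes and 4 arrays. *Hey2* was most like *Pgm5* (r = 0.986), *Fst* (r = 0.98) and *Mirg* (r = 0.98). All 3 were themselves higher in the mutant, with log2 ratios of 0.61 for *Pgm5* (limma adjusted p = 0.000149), 0.54 for *Fst*, the follistatin gene (limma adjusted p = 0.000491), and 0.15 for *Mirg* (limma adjusted p = 0.0449). *Hes5* was most like *Wdr17* (r = 0.986), *Lars* (r = 0.984) and *Plekha6* (r = 0.984), none of which passed the test (log2 ratios from -0.15 to -0.08). *Hes1* was most like *Prlr*, *D8Ertd738e* and *Gm11783* (r from 0.988 to 0.989), and *Hes6* like *Ciapin1* and *Commd4* (both r = 0.988) and a transcript without a symbol. *Hey1* was most like *Gm5868* (r = 0.988), *Susd5* (r = 0.987) and a probe without a symbol, and *Heyl* like *Cox6a1* (r = 0.971), *Poli* (r = 0.967) and *Chek1* (r = 0.926). Among the 6 genes, *Hes5* and *Hey2* ran most strongly against each other (r = -0.842), followed by *Hes6* and *Hey1* (r = -0.72). *Hes6* and *Hey2* were the most alike (r = 0.588), ahead of *Hey1* and *Heyl* (r = 0.553). For genes that passed the test, r over the 8 pools includes the difference between genotypes. Likeness within a genotype was not examined.

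*Hes5* and *Hey2* were also followed through the processing. *Hes5* kept an adjusted p below 0.05 in 14 of 15 alternative fits, with log2 ratios from -1.10 without array 2 to -0.79 without array 4. It lost the call where the 2 channels of an array were treated as unrelated samples (limma adjusted p = 0.145). That fit leaves out the pairing within arrays, as does the unpaired SAM comparison named in the study's methods. *Hey2* kept an adjusted p below 0.05 in 15 of 15, with log2 ratios from 0.33 to 0.37. *Hes1*, *Hes6*, *Hey1* and *Heyl* passed in none of the 15 fits.

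**Figure D5:**
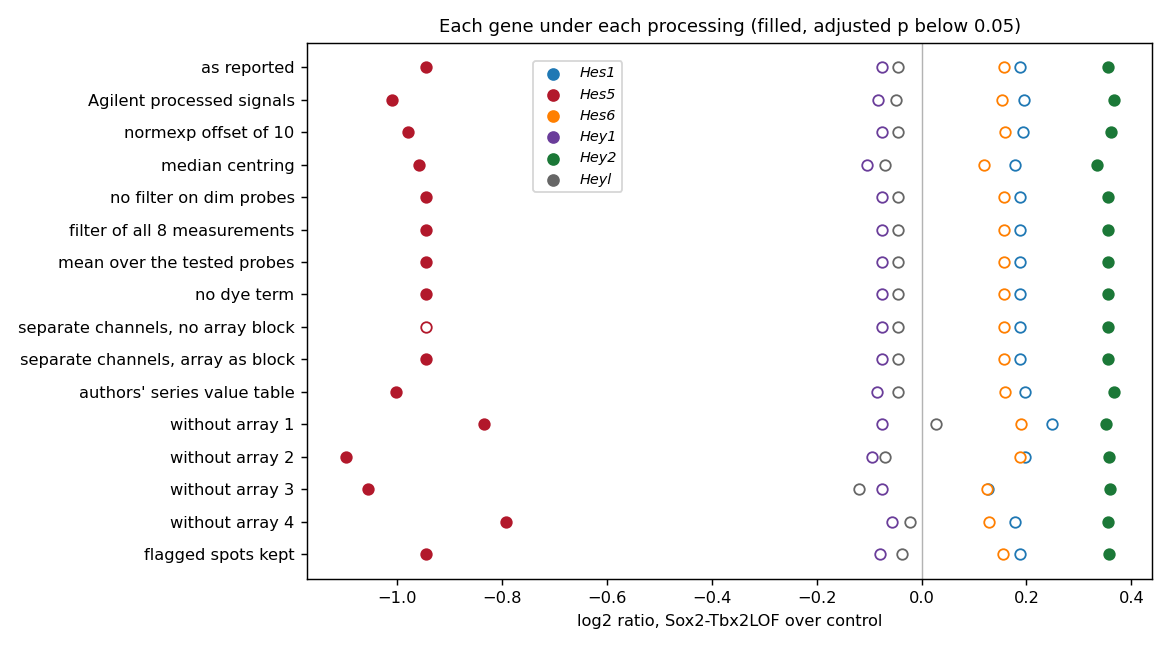
Log2 ratio of Sox2-Tbx2LOF over control (horizontal axis) of the 6 genes as reported and under 15 other settings (vertical axis), filled where the adjusted p was below 0.05. *Hes5* runs from -1.10 to -0.79 and *Hey2* from 0.33 to 0.37, and *Heyl* crosses 0 without array 1.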

How the data were processed

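Each of the 4 arrays compared a Sox2-Tbx2LOF pool with a control pool, mapped by the labels. The authors deposited Agilent Feature Extraction 10.7.3.1 output, whose intensity columns hold the mean and background signal of each spot, not normalised, and processed signals with background subtracted and dyes normalised. The deposited series value table holds a score per probe that matches a signed fold of mutant over control. How it was normalised is not given in the sources used here. Its log2 ratios correlated with those computed here at r from 0.916 to 0.943 across genes, and the column medians were between 0 and 0.011.

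Mean signals were background-corrected (normexp, offset 50) and loess-normalised with limma 3.58.1 in R 4.3.3, turned to mutant over control, and averaged over the spots of a probe without an outlier flag (8.29% to 8.56% of spots per array were flagged, none was saturated). A probe was tested if well above background in at least 4 of its 8 channel readings, and of several such probes the brightest represented the gene. limma fitted genotype with a dye term, and p-values were Benjamini-Hochberg adjusted over 21042 genes. Genes passed at an adjusted p below 0.05. P-values rest on the spread of a gene's 4 ratios after the dye term, with 2 residual degrees of freedom. limma draws that spread towards the one typical of all genes (5.65 prior degrees of freedom). The small number of pools limits the precision. All arrays share 1 slide and 1 scan. The fit was tested on simulated data. The 6 genes are named by symbol, pathway genes if they passed (*Notch1*, *Notch4* and *Rbpj* were added after their values were seen), the 2 first markers of each list (1 of these is not reported here), and the 3 most similar genes per member. Members and lists were chosen with earlier results of these data known. The authors' SAM test was not rerun. Alternatives were another offset, median centring, other filters, processed signals, the value table, no dye term, separate channels and each array left out.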

Additional observations from a re-analysis of the deposited data

Results flagged for a closer look

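In a group of 4 pools, 1 pool stood apart from the other 3 (a gap to the nearest pool that is larger, relative to the group's range, than the critical value of Dixon's test) in 3 of the 18 groups checked, where chance marks about 5% of groups. The gap over range was 0.829 for *Hes1* in the mutant pools, where array 4 was low at 10.38, as was the control pool of that array. It was 0.871 for *Hes6* in the mutant pools, where array 1 was low at 14.08. It was 0.865 for *Hey1* in the control pools, where array 2 was low at 15.46. None of the log2 ratios of the 6 genes, and neither group of *Hes5* or *Hey2*, was marked in this way.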

How the results depend on the processing

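The log2 ratio of *Hes5* was -0.945 under separate channels with no replicate block, with an adjusted p of 0.145, and 1 member then passed. With the array as replicate block its adjusted p was 0.0042. Without each array in turn it ranged from -1.098 to -0.792 (adjusted p up to 0.0469), that of *Hey2* from 0.352 to 0.359, *Hes1* from 0.126 to 0.249, *Hes6* from 0.125 to 0.190, *Hey1* from -0.094 to -0.057, and *Heyl* from -0.119 to 0.028, changing sign without array 1 and passing in none. Under the other 10 alternatives 2 members passed. These include keeping flagged spots, an alternative chosen after seeing the data, as was leaving arrays out for the pathway genes. Over all genes 1091 passed as reported, 577 with processed signals, 264 with no dye term, 217 with separate channels and no replicate block, 414 with the value table, and 411, 445 and 695 without arrays 1, 3 and 4. Pathway genes lower fell from 5 to 1 with processed signals. A slide or scan block was not run, since there is 1 of each. The control genotype rests on the labels, 4 pools per genotype limit the precision, and each gene rests on 1 probe.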
